A study of Mus musculus with 6 samples.

Results

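Carbonic anhydrases are zinc enzymes that interconvert carbon dioxide and water with bicarbonate and a proton. Their isoforms sit in the cytosol, in mitochondria or on the cell surface, and in liver they take part in acid-base balance, bile formation and the supply of bicarbonate to the enzymes that fix it. CAR3 (carbonic anhydrase III) is an abundant cytosolic protein of liver, fat and slow muscle with low hydratase activity, and its reactive cysteines are S-glutathionylated under oxidative stress. Described here are 8 genes of this family in mouse liver, Car1, Car2, Car3, Car4, Car5a, Car8, Car13 and Car14. They comprise every probe set whose only gene symbol in the platform annotation was one of these names, which gave 16 probe sets of 45037 on the array, and 8 of 18193 named genes. The genes were chosen by their symbols with the difference in signal between knockouts and controls, in Car3 above all, already known. Those differences are therefore given as a description, without a test.

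RNA was taken from the livers of 3 conditional Keap1 knockouts (Keap1_CKO, Alb-Cre::Keap1(flox/-)), numbered 3, 4 and 5, and 3 genetic controls (Alb-Cre:Keap1(flox/+)), numbered 1, 2 and 3. All were male and 9 weeks old and had received vehicle alone, made up of 10% DMSO, 10% Cremophor-EL and 80% PBS. Each animal was hybridised to 1 single-colour array. The albumin promoter drives Cre in hepatocytes. Both groups carry the Cre and a floxed Keap1 allele, and they differ in the second allele, which is null in the knockouts and wild type in the controls. The null allele does not depend on Cre.

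KEAP1 holds the transcription factor NRF2 to a CUL3-based ligase, which leads to the breakdown of NRF2. The brighter Keap1 probe set read 326.2, 151.4 and 213.6 in knockouts 3, 4 and 5, against 785.9, 843.1 and 699.8 in controls 1, 2 and 3. The other read 336.3, 445.8 and 206.3 against 476.7, 564.2 and 540.9, so the knockouts were below the controls in both, and the order of the knockouts differed between them. Of 10 hepatocyte markers listed, 9 had a probe set of their own and all 9 passed a filter on low signal, set at the 40th percentile of all probe sets, about 79.0. Their summed signal was 230032 to 259881 in the knockouts and 205839 to 233569 in the controls. The ratio of 3′ to 5′ actin signal, a sign of RNA quality, was 1.58 to 1.85 in the knockouts and 1.54 to 1.90 in the controls.

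Car3 was lower in all 3 knockouts than in all 3 controls in each of its 4 probe sets, but the probe sets differed widely in the size of that difference and in which animals stood out. Probe sets 1449434_at and 1460256_at, both designed on the Car3 reference transcript, were bright. Probe sets 1430584_s_at and 1453588_at, both designed on 1 other sequence record assigned to Car3, were dimmer. Signals of different probe sets cannot be ranked as transcript levels, so each is compared with itself across animals.

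The brightest, 1449434_at, had signals of 9359.7, 23505.6 and 9765.0 in knockouts 3, 4 and 5, against 29456.0, 26538.5 and 24333.7 in controls 1, 2 and 3. Knockouts 3 and 5 were far below every control, while knockout 4 lay just below the lowest control. Knockouts averaged 14210 ± 8053, against 26776 ± 2569 for controls (SD, n = 3 each), which is 53.1% of control. Log2 differences are knockout minus control, computed on log2(signal + 16), which understates the differences of dim probe sets. For 1449434_at the log2 difference was -1.05 (standard error 0.30), or -1.48 when knockout 4 was left out.

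Probe set 1460256_at separated the groups further, again with knockout 4 as the highest knockout. Its signals were 3930.3, 14027.3 and 3240.3 in knockouts 3, 4 and 5, against 22006.7, 20588.7 and 15989.1 in controls 1, 2 and 3. Knockout 4 was again near the lowest control, control 3. Knockouts averaged 7066 ± 6039, against 19528 ± 3146 for controls (SD, n = 3 each), which is 36.2% of control. The log2 difference was -1.78 (standard error 0.45), and -2.43 when knockout 4 was left out. The signal of 1460256_at as a percentage of that of 1449434_at was 42.0, 59.7 and 33.2 in knockouts 3, 4 and 5, and 74.7, 77.6 and 65.7 in controls 1, 2 and 3. The 2 probe sets thus differed unequally between the groups within each array.

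In the dimmer pair the spread lay among the controls. Probe set 1430584_s_at had signals of 179.3, 432.1 and 279.1 in knockouts 3, 4 and 5, against 607.2, 2448.0 and 3625.6 in controls 1, 2 and 3. Control 1 was closer to the knockouts than to the other controls, although it was the animal with the highest signal in both bright probe sets. Knockouts averaged 297 ± 127, against 2227 ± 1521 for controls (SD, n = 3 each), which is 13.3% of control. Its log2 difference was -2.59 (standard error 0.57), and it was -3.34 without control 1 and -2.07 without control 3.

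Probe set 1453588_at followed the same pattern. It had signals of 116.4, 226.3 and 156.7 in knockouts 3, 4 and 5, against 441.3, 2025.8 and 2839.7 in controls 1, 2 and 3. The knockouts, at 166 ± 55.6, were at 9.41% of the controls, at 1769 ± 1220 (SD, n = 3 each), the lowest share of any probe set described. The log2 difference was -2.97 (standard error 0.57), and it was -3.77 without control 1 and -2.45 without control 3. Knockout 4 was the highest knockout in all 4 probe sets. Across the 4, the log2 difference was larger the dimmer the probe set.

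**Figure D1:**
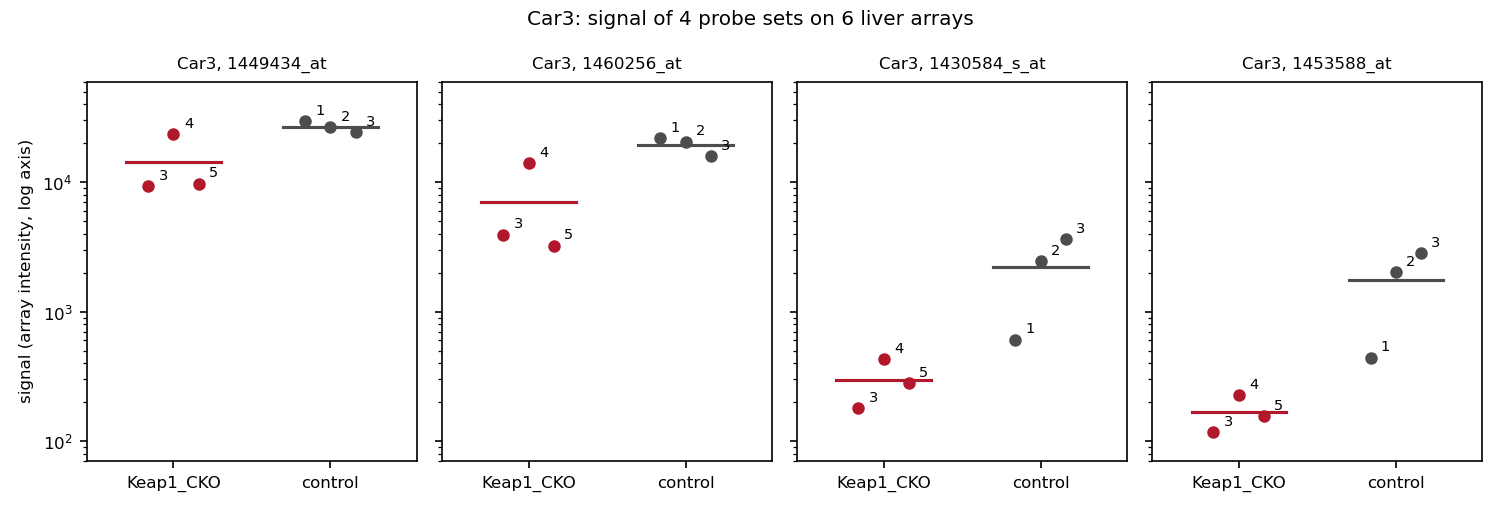
Signal (array intensity, log axis) of the 4 Car3 probe sets, with 1 point per animal labelled by its replicate number and a line at the mean of each group of 3. Knockout 4 lies close to the controls in the 2 bright probe sets at left, and control 1 lies close to the knockouts in the 2 dimmer ones at right.

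Among the other cytosolic isoforms, Car1 was lower in the knockouts and Car2 was not. Car1 (carbonic anhydrase I), best known from red blood cells and gut epithelium, had signals of 83.7, 157.6 and 64.8 in knockouts 3, 4 and 5, against 342.1, 219.2 and 244.4 in controls 1, 2 and 3. All knockouts were below all controls, and knockout 4 was again the highest of the 3. Knockouts averaged 102 ± 49.0, against 269 ± 64.9 for controls (SD, n = 3 each), which is 38.0% of control. Car1 differed by -1.32 on the log2 scale (standard error 0.31), and by -1.64 when knockout 4 was left out. Over the 6 arrays the log2 signal of Car1 had a Pearson correlation of 0.95 with 1449434_at of Car3, given as a description since both separate the groups.

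Red cells contribute RNA to whole liver, and fewer cells of a type cannot be told apart from less RNA per cell in such samples. The summed signal of the 6 erythroid markers with a probe set of their own was 1061 to 3060 in the knockouts and 2324 to 2753 in the controls, and 3 of the 6 were under the filter. Alas2, the erythroid enzyme that starts heme synthesis, had signals of 1372.3, 641.5 and 2054.1 in knockouts 3, 4 and 5, against 2282.1, 2030.6 and 1765.8 in controls 1, 2 and 3. Slc4a1, the anion exchanger of the red cell membrane, went the other way, with 145.8, 73.4 and 480.1 in the knockouts, against 47.9, 21.6 and 109.3 in the controls. Alas2 and Slc4a1 differed by -0.72 and 1.53 on the log2 scale (limma adjusted p = 0.380 and 0.310), and Klf1, an erythroid transcription factor, by -0.05. A probe set shared by the adult beta globin genes had 25924.1, 15346.7 and 26964.4 against 20635.3, 22296.6 and 17856.0. Alas2, Slc4a1 and this globin probe set were lower in knockout 4, which had the highest Car1 signal of the knockouts, than in knockouts 3 and 5, and all 3 overlapped between the groups. Hba-a1 and Epb42, both under the filter, were also lowest in knockout 4 among the knockouts. Klf1 was not, with 231.1, 235.7 and 337.8 in knockouts 3, 4 and 5. Hemgn, under the filter, was highest in knockout 4, with 42.1, 55 and 22.2. The part of red cells in the difference in Car1 was not tested.

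Car2 (carbonic anhydrase II), a highly active isoform of many tissues including bile duct cells, was the only one of the 13 probe sets past the filter whose mean was above the controls. Its signals were 485.4, 505.0 and 730.4 in knockouts 3, 4 and 5, against 322.4, 607.7 and 457.2 in controls 1, 2 and 3. The groups overlapped, and Car2 differed by 0.32 on the log2 scale (standard error 0.24). The 6 cholangiocyte markers with a probe set summed to 338 to 656 in the knockouts and 586 to 1468 in the controls. Of these, Epcam, an epithelial adhesion protein, and Slc10a2, a bile acid carrier, differed most, by -1.04 and -0.70 (limma adjusted p = 0.543 and 0.310).

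Car13, also cytosolic, was dim in all 3 of its probe sets, and all 3 were under the filter and left out of the fit. The brightest, 1421308_at, had signals of 22.8, 5.1 and 31.4 in knockouts 3, 4 and 5, against 46.2, 68.8 and 59.3 in controls 1, 2 and 3. Its log2 difference of -1.12 depended on the offset of 16 added before the logarithm, and was -1.80 with an offset of 1 and -0.55 with 64. Here knockout 4 was the lowest animal, unlike in Car1 and Car3. The other probe sets, 1421307_at and 1439620_at, reached at most 31.5 on any array, with log2 differences of -0.19 and 0.20 and overlapping groups. At the signal of these 2 a difference between the groups could not be measured.

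Car5a, the mitochondrial isoform of hepatocytes that supplies bicarbonate for urea and glucose synthesis, was near the controls. Its signals were 1572.6, 1612.5 and 1859.0 in knockouts 3, 4 and 5, against 2080.6, 2228.1 and 1510.3 in controls 1, 2 and 3. The knockouts stood at 86.7% of control with overlapping groups, and the log2 difference was -0.19 (standard error 0.15).

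Car8 encodes a carbonic anhydrase-related protein that has lost the catalytic activity and binds the inositol trisphosphate receptor ITPR1. Its 3 probe sets gave nearly the same difference, -0.37, -0.36 and -0.37 on the log2 scale, with standard errors of 0.16, 0.21 and 0.17. The brightest, 1427482_a_at, had signals of 3015.0, 4062.9 and 3184.7 in knockouts 3, 4 and 5, against 5131.1, 4643.0 and 3525.2 in controls 1, 2 and 3. Control 3 lay among the knockouts, and the groups overlapped in all 3 probe sets. Knockouts averaged 3421 ± 562, against 4433 ± 823 for controls (SD, n = 3 each), which is 77.2% of control.

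The 2 isoforms anchored in the plasma membrane showed no separation of the groups. Car14, a transmembrane isoform found on hepatocytes, had signals of 1993.4, 2063.7 and 1407.8 in knockouts 3, 4 and 5, against 2971.7, 1172.2 and 2345.1 in controls 1, 2 and 3. The controls spread over a 2.54-fold range that contained every knockout. Its log2 difference of -0.16 (standard error 0.30) changed sign without control 1, at 0.11, and without knockout 5, at 0.01. Car4, an isoform held by a lipid anchor and known from capillary endothelium, had 2 probe sets of low signal, between 57.1 and 171.9 on all arrays. They differed by -0.33 and -0.29 (standard errors 0.36 and 0.37), and 1448949_at differed by 0.09 in the other direction without control 3.

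**Figure D2:**
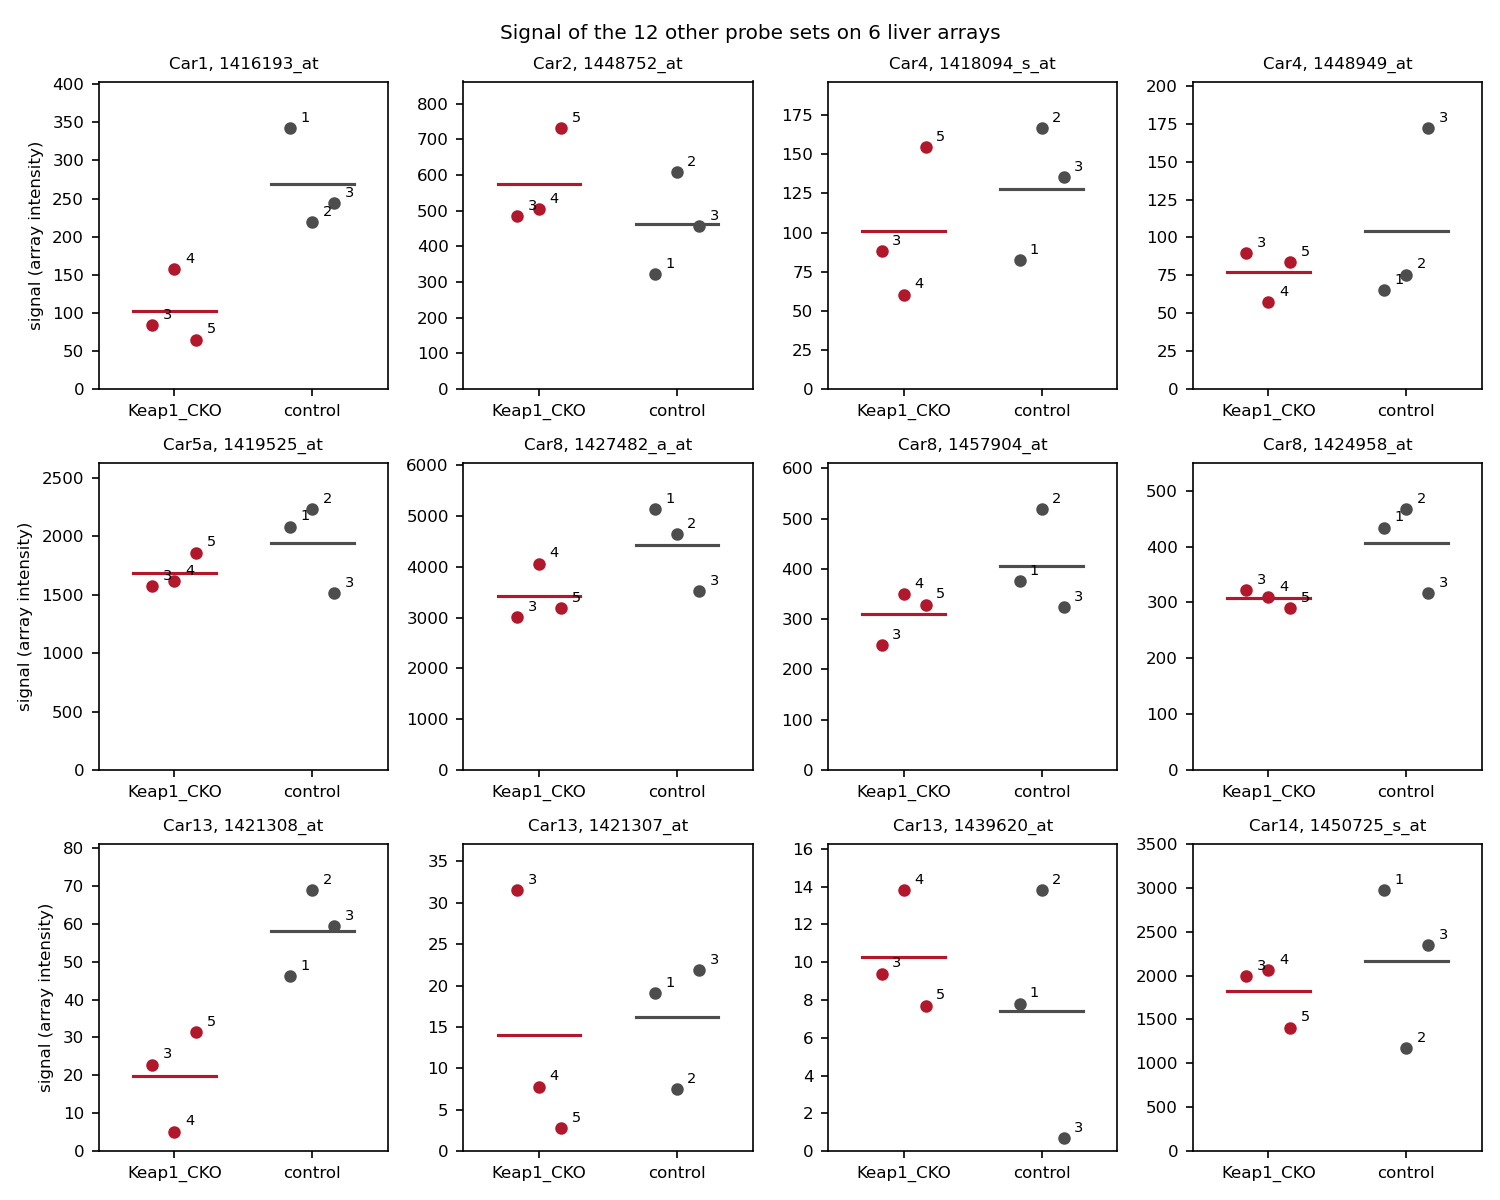
Signal (array intensity, linear axes starting at 0) of the 12 probe sets of the other 7 genes, with 1 point per animal labelled by its replicate number and a line at the group mean. The groups are apart in Car1 and in 1421308_at of Car13, which is dim, and overlap in the other 10 panels.

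Of the 16 probe sets, 13 from 7 genes passed the filter and entered a limma fit over 27022 probe sets. In that fit 1 of the 13, 1453588_at of Car3, was past the threshold (limma, Benjamini-Hochberg adjusted p under 0.05) and lower, beside 1.52% of all probe sets tested in either direction, 0.803% higher and 0.714% lower. In 5 of the 13, 4 of Car3 and that of Car1, every knockout was below every control, beside 11.4% of all probe sets. The median log2 difference of the 13 was -0.37, and that of all probe sets tested was -0.04. Since the genes were picked with this contrast in view, nothing is read from these counts. Without knockout 4 the number past the threshold was 3, without control 1 it was 2, and without any other single animal it was 0.

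The 8 remaining carbonic anhydrase genes of the mouse array, which had not been picked, gave no call. By their brightest probe sets 6 passed the filter, 3 above and 3 below the controls with a median log2 difference of -0.10. Past the threshold were 0 of 6, and 0 with each probe set's own variance. At an unadjusted p under 0.05 was 1, beside 3899 of all 27022 probe sets. Car10, another carbonic anhydrase-related protein without catalytic activity, known mainly from brain, had signals of 195.7, 198.4 and 307.0 in knockouts 3, 4 and 5, against 403.4, 391.0 and 406.6 in controls 1, 2 and 3. All knockouts were below all controls, with a log2 difference of -0.77 (standard error 0.19, limma adjusted p = 0.106) that passed without knockout 5 (-0.97, limma adjusted p = 0.0390). Car15 differed by -0.61 (limma adjusted p = 0.527). Car9 and Car12, surface isoforms, differed by 0.19 and -0.02, with Car12 under the filter.

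**Figure D3:**
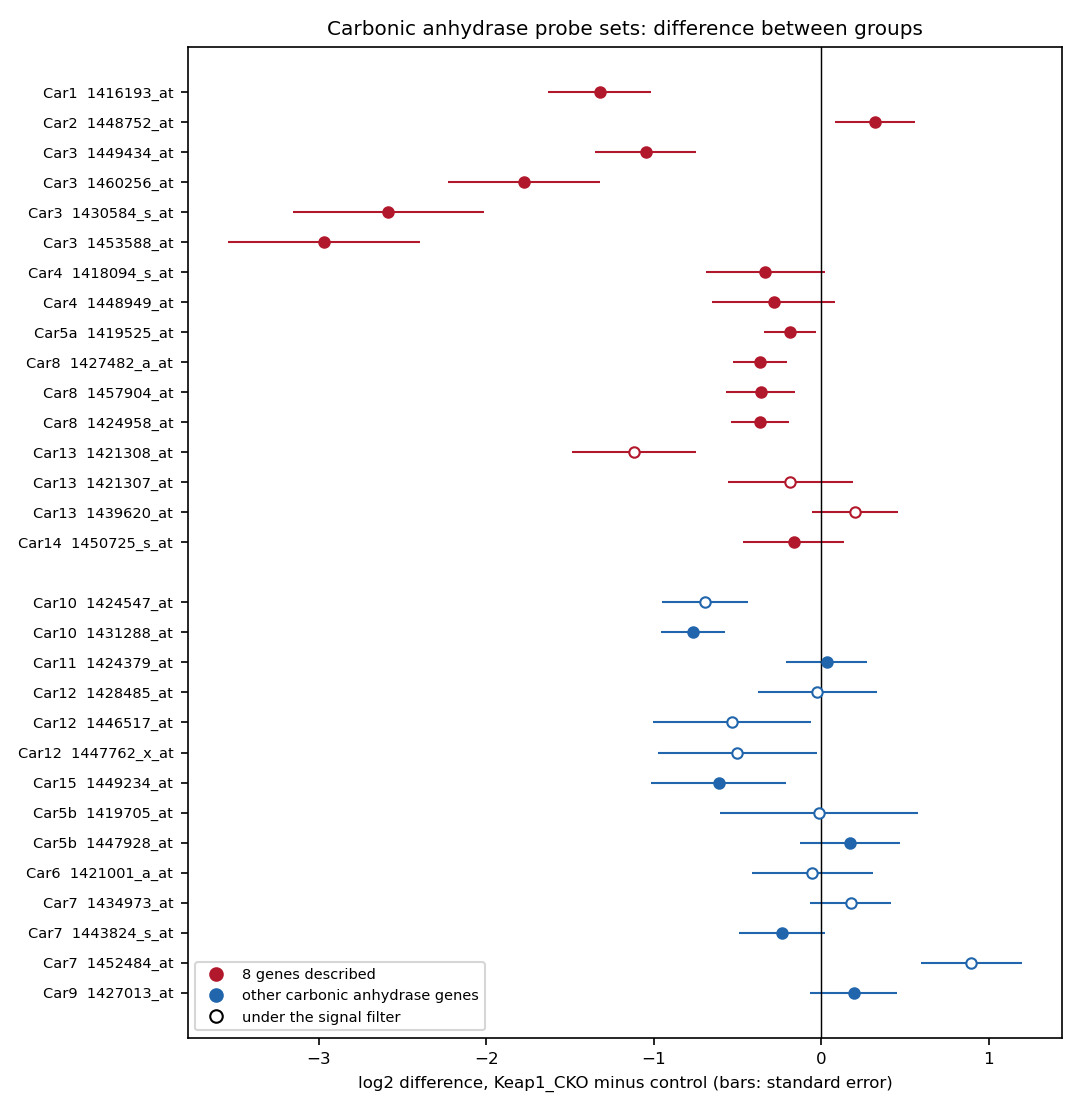
Log2 difference, Keap1_CKO minus control, for the 16 probe sets of the 8 genes described (top) and the 14 probe sets of the other 8 carbonic anhydrase genes (bottom); bars are the limma standard error and open points are under the signal filter. The 4 Car3 probe sets spread from -2.97 to -1.05, and those of Car8 coincide near -0.37.

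Car13, Car1, Car3 and Car2 follow each other on chromosome 3 in the RefSeq genes of GRCm38.p6, with no other protein-coding gene of that table between them. Within that row the values were a log2 difference of -1.12 for the dim Car13 probe set, -1.32 for Car1, -2.97 to -1.05 for Car3 and 0.32 for Car2. The nearest genes with a probe set of their own, looked up after these values were seen, were Rbis and then E2f5 on the side of Car13, and Sirpb1a on the side of Car2, beyond Gm9733, which had none. They differed by 0.10, -0.35 and 0.55 with overlapping groups (limma adjusted p = 0.725, 0.713 and 0.514). Car14 lies elsewhere on the same chromosome, and Car4, Car5a and Car8 lie on chromosomes 11, 8 and 4. The RefSeq promoters of the same build held none of Car1, Car2, Car3, Car8 or Car13, so these genes were not searched. A promoter of Car4, Car5a and Car14 was found, 250 bases before to 50 after the start. Nothing is read from the absence of a site in so few promoters. None of the 3 held the core of the antioxidant response element to which NRF2 binds, TGACNNNGC on either strand, which was in 12.4% of 32851 promoters, or the STAT site TTCNNNGAA, which was in 8.30%.

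The enzymes that fix bicarbonate, together with Hlcs, which attaches biotin to the carboxylases among them, had 0 of 10 genes past the threshold, with a median log2 difference of -0.01. Of the 10, 3 had an unadjusted p under 0.05, beside 3899 of all 27022 probe sets, and 0 passed with each probe set's own variance. Acacb and Acaca, the acetyl-CoA carboxylases, had the largest differences at -1.12 and -0.72 (limma adjusted p = 0.197 and 0.247). Both were lower in all 3 knockouts than in all 3 controls, as were 11.4% of all probe sets. Cps1, which starts the urea cycle from bicarbonate and ammonia in mitochondria, differed by 0.22, and Pcx, which makes oxaloacetate from pyruvate, by 0.19 (limma adjusted p = 0.282 and 0.472). Cps1 and the carboxylase gene Pccb (0.17, limma adjusted p = 0.463) were higher in all 3 knockouts than in all 3 controls. The share of all probe sets apart in that direction was not counted.

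Of 18 bicarbonate and anion carriers 16 had a probe set, 11 passed the filter and 0 were past the threshold (5 at an unadjusted p under 0.05, beside 3899 of all 27022 probe sets, and 0 with each probe set's own variance). After quantile normalization, median centring or cyclic loess, with array weights or by the mean over probe sets, 1 carrier passed and was higher, and without knockout 4 1 passed and was lower. Their median log2 difference was 0.15. The anion exchanger Slc4a1 of red cells and Slc26a6, a chloride and bicarbonate exchanger, differed by 1.53 and 1.42 with overlapping groups (limma adjusted p = 0.310 and 0.186). Slc26a6 had signals of 455.5, 200 and 449.4 in knockouts 3, 4 and 5, against 211.1, 53.2 and 140.2 in controls 1, 2 and 3.

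Among 10 measured carriers of protons, water, gases, ammonia and lactate 1 rose and 0 fell, beside 1.85% of all genes called by their brightest probe set, 0.975% higher and 0.875% lower. This list was drawn up with earlier results of these data known, so nothing is read from its counts. Rhbg, a channel for ammonia and possibly carbon dioxide in pericentral hepatocytes, had signals of 967.9, 895.3 and 673.6 in knockouts 3, 4 and 5, against 273.2, 419.6 and 274.9 in controls 1, 2 and 3. Every knockout was above every control, with a log2 difference of 1.36 (standard error 0.20, limma adjusted p = 0.0145). The call was lost without knockout 3, control 1 or control 3 (limma adjusted p = 0.0723, 0.0538 and 0.0515), while the difference was 1.25 to 1.26 in those fits. Of the inositol trisphosphate receptors, Itpr1 had no probe set of its own, and Itpr2 and Itpr3 differed by -0.07 and 0.26 (limma adjusted p = 0.936 and 0.770).

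Growth hormone sets the level of many liver genes that differ between the sexes, and Car3 of the rat is one of them. Of 18 measured genes of growth hormone signalling and response, 5 fell and 0 rose, beside 0.875% of all genes called lower and 0.975% higher, with a median log2 difference of -0.46. They were the steroid reductase Hsd3b5 (-4.15), the elongase Elovl3 (-1.89), the uptake carrier Slco1a1 (-1.58), Susd4 (-0.87) and the growth hormone receptor Ghr itself (-0.59). Their limma adjusted p was 0.0128, 0.0236, 0.00968, 0.0273 and 0.0414. Of the 18 genes 13 were below the controls and 5 above, whether or not they passed the threshold. Those above were Cyp7b1, Socs2, Cyp2d9, Cux2 and Cish, by 0.44, 0.13, 0.09, 0.06 and 0.02. Igf1 and Cyp4a12a were near the controls, at -0.11 and -0.10. The list was drawn up with earlier results of these data known, so nothing is read from its counts. Knockout 4 was the lowest knockout in Hsd3b5, at 119.1 beside 487.1 and 984.6 in knockouts 3 and 5, and also in Elovl3, Slco1a1 and Susd4. In Ghr it was the highest, at 11181 beside 10293.3 and 9705.9 in knockouts 3 and 5, as in Car3. A cause shared with Car3 was not tested. Without any 1 of knockouts 3 and 4 and controls 2 and 3 the number that fell was 3, without knockout 5 it was 2, and without control 1 it was 1.

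**Figure D4:**
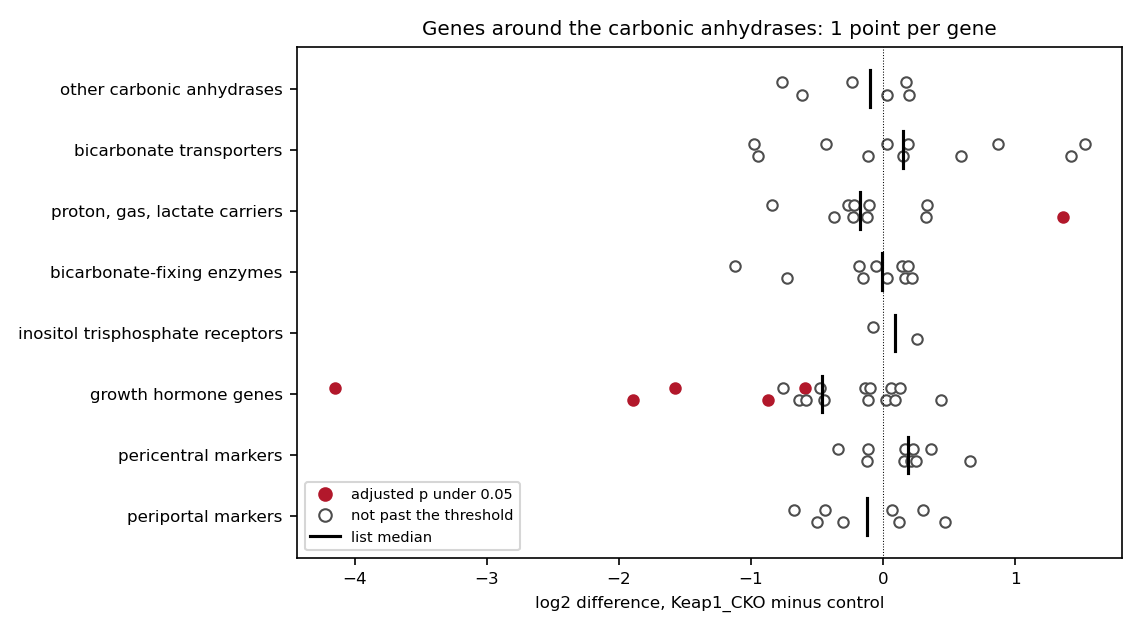
Log2 difference, Keap1_CKO minus control, of genes in 8 lists around the carbonic anhydrases, with 1 point per gene by its brightest probe set past the filter, filled where the limma adjusted p was under 0.05, and a bar at the list median. Rhbg at 1.36 and 5 growth hormone genes from -4.15 to -0.59 are the filled points.

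Markers of liver zones did not pass the threshold in 10 pericentral or 8 periportal genes, and 0 passed with each probe set's own variance. At an unadjusted p under 0.05 were 3 and 2, beside 3899 of all 27022 probe sets. The median log2 differences of the pericentral and periportal genes were 0.19 and -0.12. Among pericentral genes the P450 enzyme Cyp1a2 and the glutamate carrier Slc1a2 differed most, by 0.65 and 0.36 (limma adjusted p = 0.160 and 0.570). Cyp1a2 passed without control 1 (0.90, limma adjusted p = 0.0199). Among periportal genes Pck1, an enzyme of glucose synthesis, and Ass1, of the urea cycle, differed by -0.67 and -0.50 (limma adjusted p = 0.508 and 0.475). The groups overlapped in both. Those with an unadjusted p under 0.05 were Asl and Arg1, also of the urea cycle. They were higher in the knockouts, by 0.47 and 0.30 (limma adjusted p = 0.0993 and 0.233). Of the 8 periportal genes 4 were above the controls and 4 below.

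Fat and slow muscle express Car3 strongly. Of 4 adipocyte markers with a probe set, the hormone genes Adipoq and Lep were under the filter, and Retn, another hormone gene, and Fabp4, a fatty acid carrier, were above it. Adipoq had signals of 25.7, 35.0 and 24.6 in knockouts 3, 4 and 5, against 8.2, 60 and 38.8 in controls 1, 2 and 3. Fabp4 had 720.0, 536.1 and 531.4 in the knockouts, against 530.9, 569.5 and 425.5 in the controls. Retn had 195.3, 211.8 and 347.1 in the knockouts, against 205.3, 71.3 and 233.7 in the controls. Retn and Fabp4 differed by 0.62 and 0.22 on the log2 scale with overlapping groups (limma adjusted p = 0.514 and 0.599). The 4 markers summed to 816 to 949 in the knockouts and 711 to 758 in the controls. Of 10 skeletal muscle markers 9 were under the filter, Ckm, the muscle creatine kinase, differed by -0.13 (limma adjusted p = 0.848), and all 10 summed to 407 to 466 in the knockouts and 434 to 523 in the controls. Myh7, the myosin of slow muscle, was at 7.0 to 15.4 in the knockouts and 3.3 to 25.5 in the controls. The adipocyte sum was higher in every knockout, and the muscle sums overlapped. The part of either in the difference in Car3 was not tested.

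Genes whose log2 signal over the 6 arrays was most like that of 1449434_at, the brightest Car3 probe set, were sought among 13026 others. The 5 highest Pearson correlations were those of Penk (0.998), Trim12c (0.997), Cul7 (0.990), Sult2a8 (0.990) and Adipor2 (0.986). Penk encodes the enkephalin precursor, Cul7 a ubiquitin ligase scaffold, Sult2a8 a liver sulfotransferase and Adipor2 an adiponectin receptor. In each of them knockout 4 lay above the other knockouts, as in Car3. With 6 arrays and so many genes searched these values are a description. None of the 5 was past the threshold, with log2 differences from -0.59 to -0.29 (limma adjusted p = 0.156 to 0.586). Sult2a8 had signals of 9523.8, 15780.8 and 10822.2 in knockouts 3, 4 and 5, against 19084.7, 17581.7 and 16470.2 in controls 1, 2 and 3.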

How the data were processed

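Biotin-labelled cRNA from 6 livers was measured on Affymetrix arrays, per the labels' protocols. The deposited values are linear array intensity, 1 per probe set and array. The summarisation software was not given in the sources used here. Without its lowest and highest 2% of probe sets every array averages 500.0, so the authors had scaled them to 1 target, and a change in total RNA per cell would not be seen. Of 45101 probe sets 64 were controls, 34945 had 1 gene symbol, 932 several and 9160 none.

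Differences were computed on log2(signal + 16), which understates those of dim genes. On each array 11.9% to 16.5% of values lay under 16. Only probe sets whose mean log2 value was at or above the 40th percentile, a signal of about 79.0, entered a limma 3.58.1 fit (R 4.3.3) with moderated variances that follow the mean signal, and two-sided p-values were adjusted over 27022 probe sets by Benjamini-Hochberg with a threshold of 0.05. Standard errors of probe sets under the filter come from the same fit over all 45037. Other genes count by their brightest probe set. "Rose" and "fell" mean past that threshold. With 3 animals against 3 an exact permutation test cannot go below p = 0.1, so none was run, and the number of arrays limits the precision. The fit was tested on simulated data with known changes and independent normal noise drawn from its own variance model. Of its 116 calls there 2 were false, a share that does not carry over to the real arrays. The fit recovered 10% of 1.5-fold, 28% of 2-fold, 90% of 4-fold and 100% of 8-fold changes in such noise. A gene that did not pass the threshold may therefore still differ.

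The genes and lists were chosen with earlier results of these data known. From each other list the text names up to 4 genes past the threshold by size, or where none passed the 2 that differed most, and the 5 genes most like Car3. Cps1, Pcx, Pccb, Hlcs, Ghr, Car7, Car9, Car12, Klf1, Hemgn, Hba-a1, Epb42, Adipoq, Lep, Myh7 and the shared globin probe set were added after their values were seen. So were Asl, Arg1, Cyp7b1, Socs2, Cyp2d9, Cux2, Cish, Igf1 and Cyp4a12a. "Each probe set's own variance" stands for a Welch test with the same adjustment. Markers of hepatocytes, zones, red cells, bile ducts, fat, muscle, endothelium and macrophages were listed, and the last 2 are given among the other observations. RefSeq was used for gene order and promoters alone. Alternatives were filters, offsets, normalizations, scaling on hybridisation controls, variance models, array weights, a Welch test, gene-level summaries and leaving out each array.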

Additional observations from a re-analysis of the deposited data

How the results depend on the processing

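The 4 Car3 probe sets and Car1 stayed below the controls under every normalization, scaling and offset tried and without any 1 animal. Leaving out 1 animal at a time gave log2 differences of -1.48 to -0.82 for 1449434_at, -2.43 to -1.38 for 1460256_at, -3.34 to -2.07 for 1430584_s_at and -3.77 to -2.45 for 1453588_at, and -1.64 to -1.09 for Car1. The mean over the Car3 probe sets was -2.10, against -1.05 for the brightest alone. The number of the described probe sets past the threshold, 1 in the fit reported, was 3 after scaling on hybridisation controls and 2 with array weights. It was 0 with no filter, quantile normalization, cyclic loess, no variance trend, robust eBayes, a Welch test or the brightest probe set per gene, and 0 to 3 without 1 animal. Over all probe sets 410 were past it, and 271 with no filter, 105 without the variance trend, 0 by the Welch test (2539 at an unadjusted p under 0.05), 258 and 227 over genes by the brightest and the mean probe set, where fewer features were tested, and 158 to 297 without 1 animal. The share of higher calls, 52.9%, was 66.3% after median centring (189 higher, 96 lower), 64.8% without the variance trend (68 and 37) and 24.0% after scaling on hybridisation controls (132 and 418), which put the median of all probe sets at -0.19. Of the genes in the 8 lists 6 were past it, 0 without the variance trend or by the Welch test, and 2 to 6 without 1 animal. The cause of these shifts was not tested. Car10 passed after scaling on hybridisation controls (limma adjusted p = 0.0487). No paired analysis was possible because the groups share only the replicate number 3.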

Other observations

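In 3 genes that did not pass the threshold knockout 4 was the knockout nearest to the controls, as in Car3, and they are named here after their values were seen. Slc26a1, an exchanger of sulfate and bicarbonate in the sinusoidal membrane, had signals of 915.5, 1794 and 906.6 in knockouts 3, 4 and 5, against 2505.5, 1821.7 and 2379.2 in controls 1, 2 and 3. Aqp8, a water channel of hepatocytes, had 1431.4, 2295.5 and 1317.5 in the knockouts, against 3887.7, 2598.6 and 2480.4 in the controls. Igfals, which encodes a growth hormone-dependent carrier of IGF1, had 1559.2, 2586.8 and 1296.8 in the knockouts, against 2713.3, 3138.1 and 2999.8 in the controls. Knockout 4 lay just below the lowest control in each of them. Their log2 differences were -0.95, -0.84 and -0.76 (limma adjusted p = 0.122, 0.135 and 0.154).

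The bicarbonate carrier Slc4a8, also named after its values were seen, had signals of 666.8, 649.7 and 766.9 in knockouts 3, 4 and 5, against 421.3, 458.5 and 484.5 in controls 1, 2 and 3. Every knockout was above every control, with a log2 difference of 0.59 (limma adjusted p = 0.0700).

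Endothelial and macrophage markers had 0 of 8 genes past the threshold in each list, and 0 by a Welch test with adjustment. At an unadjusted p under 0.05 were 1 and 2, beside 3899 of all 27022 probe sets. Lyve1, of sinusoidal and lymphatic endothelium, and Marco, a macrophage scavenger receptor, were higher in every knockout than in every control, with log2 differences of 1.29 and 1.40 (limma adjusted p = 0.117 and 0.120). Emcn, an endothelial surface protein, was also higher in every knockout, with a log2 difference of 0.19 (limma adjusted p = 0.647). Cd5l, a protein secreted by macrophages, differed by 0.51 with overlapping groups (limma adjusted p = 0.308). The share of all probe sets that were higher in every knockout was not counted. The endothelial markers summed to 6328 to 6585 in the knockouts and 6039 to 6227 in the controls, and the macrophage markers to 12171 to 15951 and 8871 to 15208. Of the hepatocyte, erythroid, bile duct, adipocyte and muscle markers past the filter, 0 of 9, 3, 4, 2 and 1 passed the threshold, and 0 by a Welch test with adjustment. At an unadjusted p under 0.05 were 3, 1, 1, 0 and 0, beside the same 3899 of all 27022 probe sets. Among hepatocyte markers Hnf4a, a transcription factor, and Tat, of tyrosine breakdown, differed most, by 0.41 and 0.23 (limma adjusted p = 0.123 and 0.565).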
